A study of Homo sapiens with 10 samples.

Results

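The genes described here encode the NF-kB transcription factors, the inhibitors they induce and close signalling partners: NFKB1, NFKB2, REL, RELA, RELB, NFKBIA, NFKBIE, TNFAIP3, BIRC3 and BCL10. Their probe sets were found by gene symbol in the probe annotation of the arrays; the list itself was drawn up with earlier results of these data known, so counts over it are a description. Of these 10 genes 9 had a probe set, 1 each, among the 18569 probe sets measured, and the expression of BIRC3 was not analysed here. RNA came from A375 cells, an established human skin melanoma line, on Clariom S arrays with 1 array per sample. The control group is 5 arrays of cells plated without doxycycline, and the doxycycline group is 5 arrays of cells plated with it at 2 µg/ml; both were frozen on day 4. The series title names Omomyc, a mutant MYC fragment that blocks MYC-driven transcription, but the labels describe neither the construct nor its promoter, nor whether the line is 1 clone. An effect of doxycycline itself cannot be told apart from one of Omomyc in these 10 arrays. The labels name biological replicas but no separate cultures, so the spread behind each p value is that of these samples and can include technical spread.

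NF-kB proteins are dimers of 5 subunits that share a Rel homology domain for DNA binding. RELA, REL and RELB carry a transactivation domain, whereas NFKB1 and NFKB2 encode precursors, p105 and p100, that are cut to the DNA-binding subunits p50 and p52. In resting cells the inhibitors IkB alpha (NFKBIA) and IkB epsilon (NFKBIE) hold dimers in the cytoplasm, and the IkB kinase complex marks them for destruction after a signal. NFKBIA, NFKBIE and TNFAIP3, which encodes the ubiquitin-editing enzyme A20, are themselves classic NF-kB target genes and so form negative feedback loops. Activity is controlled mostly at the protein level, by degradation, processing and nuclear entry, none of which an RNA array measures.

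With doxycycline, the RNA signal of the 3 genes classed here as feedback inhibitors and of 2 of 5 subunits rose. TNFAIP3 was 1.87-fold higher, REL 1.66-fold, NFKBIA 1.55-fold, NFKBIE 1.46-fold and RELA 1.20-fold, with 5 arrays in each group. NFKB1, NFKB2, RELB and BCL10 did not pass the test. In all, 5 of 9 genes rose and none fell at an adjusted p under 0.05 by limma. Across all 18569 probe sets 38.1% passed, 20.9% higher and 17.2% lower with doxycycline. The share was larger among brighter probe sets: 5586 of 9285 passed once those below the median signal were left out. The median log2 fold change was 0.27 over the 9 genes and 0.04 over all probe sets.

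NF-kB proteins bind short sites that begin G-rich and end C-rich, and several of their own genes carry such sites near the start. RefSeq promoter windows of GRCh38.p14, which run from 250 bases before to 50 after a start, matched 8 of the 10 symbols in 12 windows. RELB and NFKBIE had none. On both strands, the 10-base NF-kB consensus was found in 6 of these 8 genes: REL, NFKBIA, TNFAIP3, NFKB1, NFKB2 and BIRC3. The share over all 27305 genes with a window was 13.3%, and 11.3% over all 35116 windows. A second motif, GGAANTTCC, was found in 3 of the 8 genes, REL, NFKBIA and NFKB1, each time inside a consensus match, against 1.16% of all genes. RELA and BCL10 held neither motif in their windows. Stretches around the matches in 3 genes that rose and 2 that did not pass are shown 5′ to 3′ on the gene's strand, with consensus matches in capitals.
REL, chr2:60881502-60881561, plus strand: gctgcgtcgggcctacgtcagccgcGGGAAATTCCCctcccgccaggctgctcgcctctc
NFKBIA, chr14:35404796-35404855, minus strand: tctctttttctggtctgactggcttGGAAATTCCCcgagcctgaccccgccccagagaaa
TNFAIP3, chr6:137867173-137867232, plus strand: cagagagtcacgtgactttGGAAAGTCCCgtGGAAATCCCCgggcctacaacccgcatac
NFKB1, chr4:102501285-102501344, plus strand: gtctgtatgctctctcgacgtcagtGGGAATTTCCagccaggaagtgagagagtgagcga
NFKB2, chr10:102394461-102394490, plus strand: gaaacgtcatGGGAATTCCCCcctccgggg
The REL, NFKBIA, NFKB1 and NFKB2 stretches each hold 1 run of consensus bases and that of TNFAIP3 holds 2. Overlapping matches were joined, so the runs in REL and NFKB2 are longer than 10 bases. The NFKB2 stretch shows 1 of the 2 runs in its window, and another NFKB2 window also held 2. A match to letters is a description of the sequence, since no binding was measured in these samples.

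**Figure D1:**
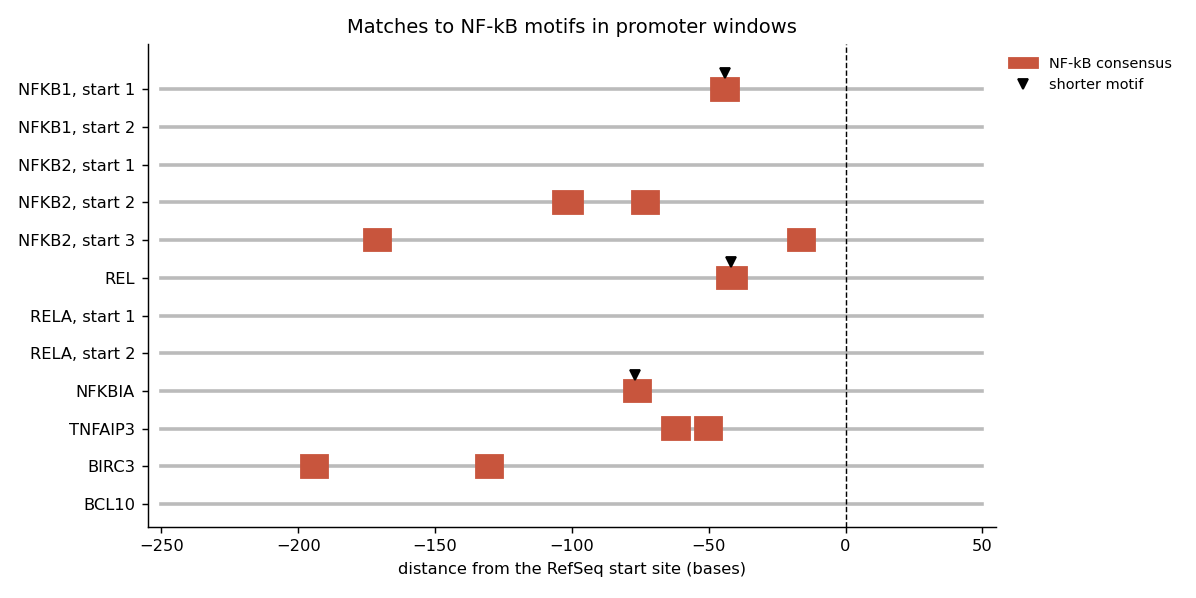
Positions of the NF-kB consensus (red boxes) and of the shorter motif (black triangles) in the 12 RefSeq promoter windows of 8 genes; the x axis gives the distance from the start site in bases, and grey lines span each window. All matches lie before the start, at -49 to -40 in NFKB1 and at -47 to -37 in REL.

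Among the subunits, REL showed the largest change. REL encodes c-Rel, a transactivating subunit best known from lymphocytes. Its log2 signal was 6.43, 6.15, 6.25, 6.55 and 6.35 on control arrays 1 to 5 and 7.15, 6.83, 7.01, 7.33 and 7.08 on doxycycline arrays 1 to 5. Every doxycycline array lay above every control array. REL rose by 0.73 ± 0.10 log2 units (SE), with means of 6.35 ± 0.16 and 7.08 ± 0.18 (SD, n = 5 each) and an adjusted p of 4.57e-05 by limma. It ranked 952 of 18569 probe sets from the highest fold change down.

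RELA, which encodes p65, the main transactivating subunit in most cells, rose less. Control arrays read 8.28, 8.52, 8.36, 8.54 and 8.43 log2 units, and doxycycline arrays 8.84, 8.67, 8.65, 8.53 and 8.76. The lowest doxycycline array overlapped the upper end of the controls and the other 4 lay above them. RELA rose by 0.27 ± 0.09 log2 units (SE), at an adjusted p of 0.0224. The call was lost without control array 1 (adjusted p = 0.0632), control array 3 (adjusted p = 0.0563) or doxycycline array 5 (adjusted p = 0.0526), and over all alternatives run the adjusted p ran from 0.0049 to 0.0657.

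The genes of both precursor proteins lay on either side of 0, and neither passed. NFKB1 encodes p105, which also acts as an inhibitor before it is cut to p50. Its signal was 7.10, 7.41, 7.48, 7.47 and 7.26 in control and 7.06, 7.11, 7.16, 7.20 and 7.10 with doxycycline. Control array 1 read like the doxycycline arrays, and the other 4 control arrays lay above all of them. The log2 fold change was -0.22 ± 0.09 (SE; 95% interval -0.41 to -0.03), at an adjusted p of 0.0640 that became 0.0179 without control array 1. NFKB1 also passed after 4 changes of processing, among them a variance trend (adjusted p = 0.0414) and removal of probe sets below the median signal (adjusted p = 0.0294).

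NFKB2 encodes p100, whose cleavage to p52 is the output of the non-canonical pathway. Control arrays read 7.82, 7.49, 7.73, 7.73 and 7.78 and doxycycline arrays 7.95, 7.90, 7.93, 7.84 and 7.86. The groups did not overlap, although the gap between the nearest arrays was small and control array 2 lay below the other controls. The log2 fold change was 0.19 ± 0.08 (SE; 95% interval 0.01 to 0.36), at an adjusted p of 0.0886. With array medians made equal it was 0.22, at an adjusted p of 0.0459. Without probe sets below the median signal the adjusted p was 0.0428.

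RELB, the usual partner of p52, varied more among the doxycycline arrays than among the controls. Its signal was 6.05, 6.06, 5.97, 5.77 and 5.99 in control and 5.84, 6.12, 6.26, 5.98 and 6.44 with doxycycline. Doxycycline arrays reached both above and into the control range. The log2 fold change of 0.16 ± 0.11 (SE) had a 95% interval of -0.08 to 0.40 and an adjusted p of 0.296, which leaves a rise of the size seen for RELA within the interval.

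**Figure D2:**
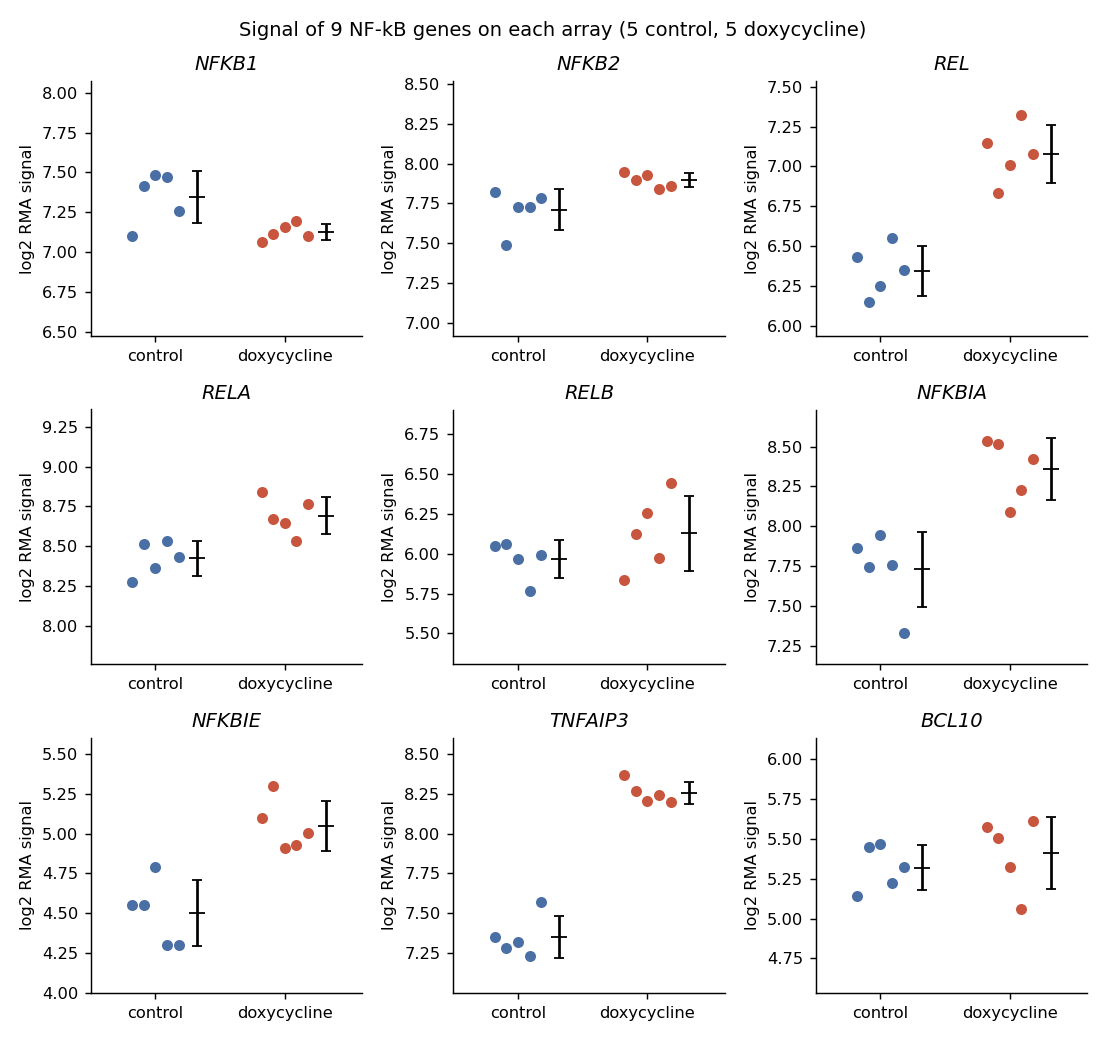
Log2 RMA signal of 9 NF-kB genes (y axis, 1 panel per gene, each spanning the same height in log2 units) on 5 control arrays (blue) and 5 doxycycline arrays (red), in order of array number; black marks give the mean ± SD of 5 arrays. In NFKB2, REL, NFKBIA, NFKBIE and TNFAIP3 the groups do not overlap.

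The 3 genes classed here as feedback inhibitors, TNFAIP3, NFKBIA and NFKBIE, all rose. Of 11 further brakes on the pathway 5 rose, 1 fell and 5 did not pass. Among all probe sets 20.9% rose and 17.2% fell, and 5586 of 9285 passed without those below the median signal. TNFAIP3 encodes A20, which removes activating ubiquitin chains from receptor-proximal signalling proteins. Its log2 signal was 7.35, 7.28, 7.32, 7.23 and 7.57 in control and 8.37, 8.27, 8.20, 8.24 and 8.20 with doxycycline. Even the highest control array lay well below the lowest doxycycline array. The change was 0.90 ± 0.08 log2 units (SE; 95% interval 0.73 to 1.08), with an adjusted p of 5.49e-07, and ranked 590 of 18569 from the top.

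NFKBIA, whose product strips RELA-containing dimers from DNA and returns them to the cytoplasm, read 7.86, 7.75, 7.95, 7.76 and 7.33 in control. With doxycycline it read 8.53, 8.52, 8.09, 8.23 and 8.43. The groups were apart, and control array 5 was the lowest of all. NFKBIA rose by 0.63 ± 0.12 log2 units (SE), at an adjusted p of 7.32e-04.

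NFKBIE encodes IkB epsilon, a slower-acting relative of IkB alpha. Control arrays read 4.55, 4.55, 4.79, 4.30 and 4.30 and doxycycline arrays 5.10, 5.30, 4.91, 4.93 and 5.00. No doxycycline array reached down to the controls. This was a rise of 0.55 ± 0.11 log2 units (SE), at an adjusted p of 9.70e-04. Its mean signal lay below the median probe set, where array background compresses fold changes.

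BCL10, an adaptor that joins CARD proteins to the protease MALT1 upstream of the IkB kinases, did not pass. It read 5.14, 5.45, 5.47, 5.23 and 5.32 in control and 5.57, 5.50, 5.32, 5.06 and 5.61 with doxycycline. The lowest value was a doxycycline array and so was the highest. The log2 fold change was 0.09 ± 0.11 (SE; 95% interval -0.15 to 0.33), at an adjusted p of 0.574. BIRC3, the ubiquitin ligase cIAP2 and itself an NF-kB target, had no probe set under its symbol.

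**Figure D3:**
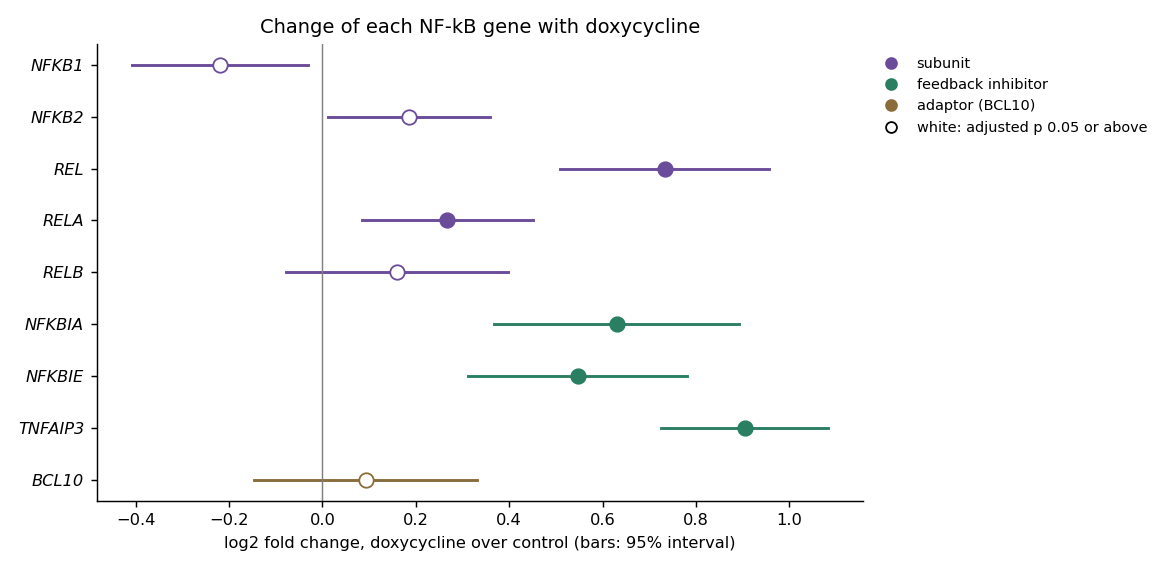
Log2 fold change of doxycycline over control (x axis) for 9 NF-kB genes, coloured by role; bars are 95% intervals from limma with 5 arrays per group, and white circles mark an adjusted p of 0.05 or above. TNFAIP3 (0.90) and REL (0.73) lie farthest to the right, and NFKB1 (-0.22) is the single gene to the left of 0.

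Separation of the groups gave a slightly different set from the test. For 5 of 9 genes, NFKB2, REL, NFKBIA, NFKBIE and TNFAIP3, no control array overlapped a doxycycline array, against 28.6% of all probe sets. The 28.6% includes dim probe sets, so it is not a share at like signal. The exact two-sided permutation test over the 10 arrays gave these 5 genes p = 0.00794, the smallest that 252 splits allow. Groups of 5 arrays that do not overlap always reach this value, so it adds nothing to their separation. The same exact permutation test gave RELA p = 0.0159, NFKB1 p = 0.0317, RELB p = 0.230 and BCL10 p = 0.452, all unadjusted. REL, NFKBIA, NFKBIE and TNFAIP3 passed under every alternative in which they were tested, including without any 1 array.

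**Figure D4:**
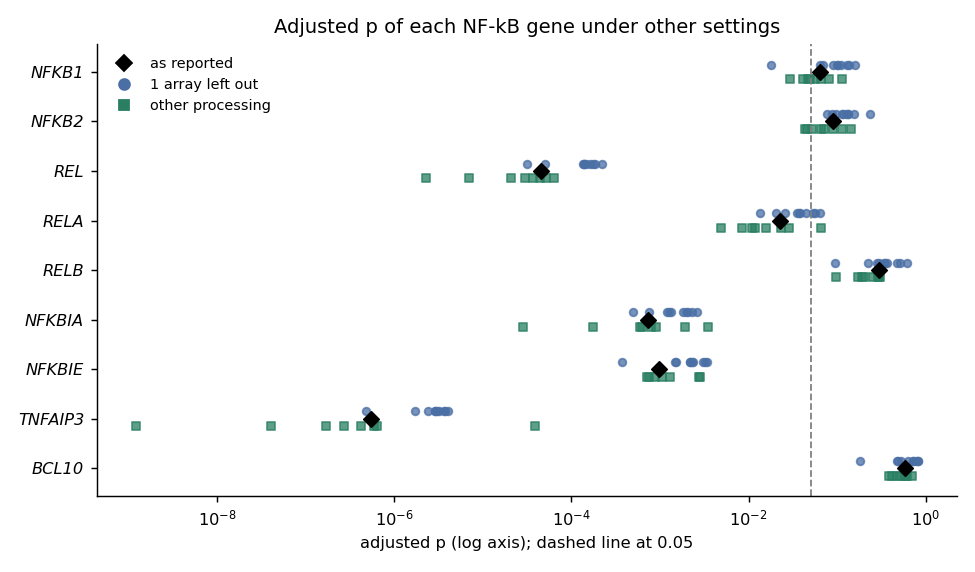
Adjusted p (x axis, log scale) of the 9 NF-kB genes as reported (black diamonds), with 1 array left out (blue circles) and under other processing (green squares); the dashed line marks 0.05. REL, NFKBIA, NFKBIE and TNFAIP3 stay left of the line, RELA, NFKB1 and NFKB2 fall on both sides, and RELB and BCL10 stay right of it.

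Genes whose profile over the 10 arrays was most like that of TNFAIP3 were ING4, BBS9 and QPCT. After centring each gene on its own mean, they differed from TNFAIP3 by a root mean square of 0.065, 0.069 and 0.072 log2 units. For NFKB1, the lowest fold change of the 9, the nearest were STX8, FXYD4 and SNAPC1, at 0.056, 0.066 and 0.067 log2 units. These likenesses describe the same 2 groups of arrays and, for NFKB1, a change that did not pass the test.

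The rest of the pathway was read from 7 lists of receptors, adaptors, kinases, brakes and targets. Of 91 genes listed 79 were measured, of which 34 rose and 8 fell, 53.2% in all against the 38.1% of all probe sets. Their median log2 fold change was 0.21, against 0.04 for all probe sets. The 38.1% includes dim probe sets, so it is not a share at like signal. Without probe sets below the 25th percentile of signal 6967 of 13927 passed, and without those below the median 5586 of 9285. Target genes held 14 of the rises and 4 of the falls. The levels are of bulk RNA, so fewer cells expressing a gene and less RNA per cell cannot be told apart.

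Upstream of the subunits, 12 of 21 measured receptors and adaptors rose and 1 fell, with a median of 0.37. The shares of all probe sets were 20.9% higher and 17.2% lower, and 5586 of 9285 passed without those below the median signal. MYD88, the adaptor of interleukin 1 and Toll-like receptors (0.69 ± 0.12, log2 fold change ± SE), and TRAF1, an adaptor that NF-kB induces (0.65 ± 0.08), rose. So did TNFRSF1A, the main receptor of TNF (0.60 ± 0.08), and TAB2, which ties ubiquitin chains to the kinase TAK1 (0.58 ± 0.08). TRAF3, which restrains the non-canonical pathway by sending the kinase NIK to destruction, was the exception. Control arrays lay between 7.21 and 7.43 log2 units and doxycycline arrays between 5.17 and 5.32, a 4.20-fold fall at an adjusted p of 6.20e-11. NIK itself, MAP3K14, read 4.17 ± 0.28 in control and 4.12 ± 0.30 with doxycycline (SD, n = 5), at an adjusted p of 0.842.

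Of the partners of BCL10, MALT1 rose and the measured CARD scaffolds did not pass. MALT1 signal lay between 6.75 and 7.08 log2 units on control arrays and between 9.22 and 9.77 on doxycycline arrays, a 6.08-fold rise at an adjusted p of 1.44e-10. The scaffold genes CARD9 (-0.13), CARD10 (0.10) and CARD14 (0.12) did not pass, with adjusted p values from 0.414 to 0.449. CARD9 was near the array floor, with means of 3.01 in control and 2.88 with doxycycline. Thus 1 of 4 measured genes of this list rose, against 20.9% of all probe sets.

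Among 6 kinases 1 rose and 1 fell, against 20.9% higher and 17.2% lower over all probe sets. IKBKE, an IkB kinase relative linked to interferon signalling, rose by 0.65 ± 0.11 (log2 ± SE). IKBKB, a catalytic subunit that marks IkB alpha for destruction, fell by 0.54 ± 0.09 (log2 ± SE). The adjusted p was 3.32e-04 for IKBKE and 2.41e-04 for IKBKB. In both genes the groups did not overlap, which held for 28.6% of all probe sets, dim ones included. CHUK, a catalytic subunit that also acts in the non-canonical pathway (0.20, adjusted p = 0.167), and the regulatory subunit IKBKG (0.09, adjusted p = 0.662) did not pass. TBK1, a kinase of innate immune signalling, stood at -0.27 with an adjusted p of 0.0551, and over all alternatives run the adjusted p lay on both sides of 0.05, from 0.0254 without probe sets below the median signal to 0.13 with array weights. It passed without control array 1 (adjusted p = 0.0287) or doxycycline array 3 (adjusted p = 0.0447).

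The linear ubiquitin complex, which builds chains that recruit the IkB kinases and A20, had 1 of 3 genes lower. RBCK1 fell by 0.51 ± 0.10 (adjusted p = 5.85e-04), while the catalytic RNF31 (0.21, adjusted p = 0.125) and SHARPIN (-0.13, adjusted p = 0.346) did not pass. Of 3 other IkB family genes NFKBIZ, an induced nuclear cofactor, rose by 0.54 ± 0.10 (adjusted p = 3.37e-04), and NFKBIB (-0.31, adjusted p = 0.215) and NFKBID (0.08, adjusted p = 0.657) did not pass. Further brakes rose in 5 of 11 cases, fell in 1 and did not pass in 5, against 20.9% higher and 17.2% lower over all probe sets. CYLD, which cuts linear and K63-linked ubiquitin chains, rose by 0.64 ± 0.10, RNF11, a partner of A20, by 0.45 ± 0.08, and the deubiquitinase OTUD7B by 0.41 ± 0.09. OTULIN, which cuts linear chains, fell by 0.33 ± 0.08 (adjusted p = 0.00595). PDLIM2 rose by 0.31 ± 0.10, but its control mean of 2.93 was near the array floor and the call was lost without control array 4 or 5 or doxycycline array 1 or 5 (adjusted p = 0.0558 to 0.0653), with a variance trend and with quantile normalization repeated.

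Known NF-kB target genes outside the 10 went both ways, with 14 of 31 higher, 4 lower and a median of 0.25. Over all probe sets 20.9% were higher and 17.2% lower with doxycycline. Without those below the median signal 5586 of 9285 passed, so the targets' count is not set apart from brighter probe sets. The cytokine IL6 had a control mean of 2.57, near the array floor, and reached 5.07 with doxycycline. The chemokines CCL2 (2.23 ± 0.09, log2 fold change ± SE) and CXCL8 (1.36 ± 0.12) and the polyamine-degrading enzyme SAT1 (2.20 ± 0.08) rose as well. The fallers were PTX3, a secreted pattern recognition protein (-1.02 ± 0.11), CD83 (-0.92 ± 0.12), the cytokine LIF (-0.90 ± 0.13) and interleukin 1 alpha, IL1A (-0.63 ± 0.09). In each of these 8 genes, named for the size of their change, the groups did not overlap. Over the whole list this held for 15 of 31 targets, and over all probe sets, dim ones included, for 28.6%. Many of these genes also answer to other transcription factors.

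**Figure D5:**
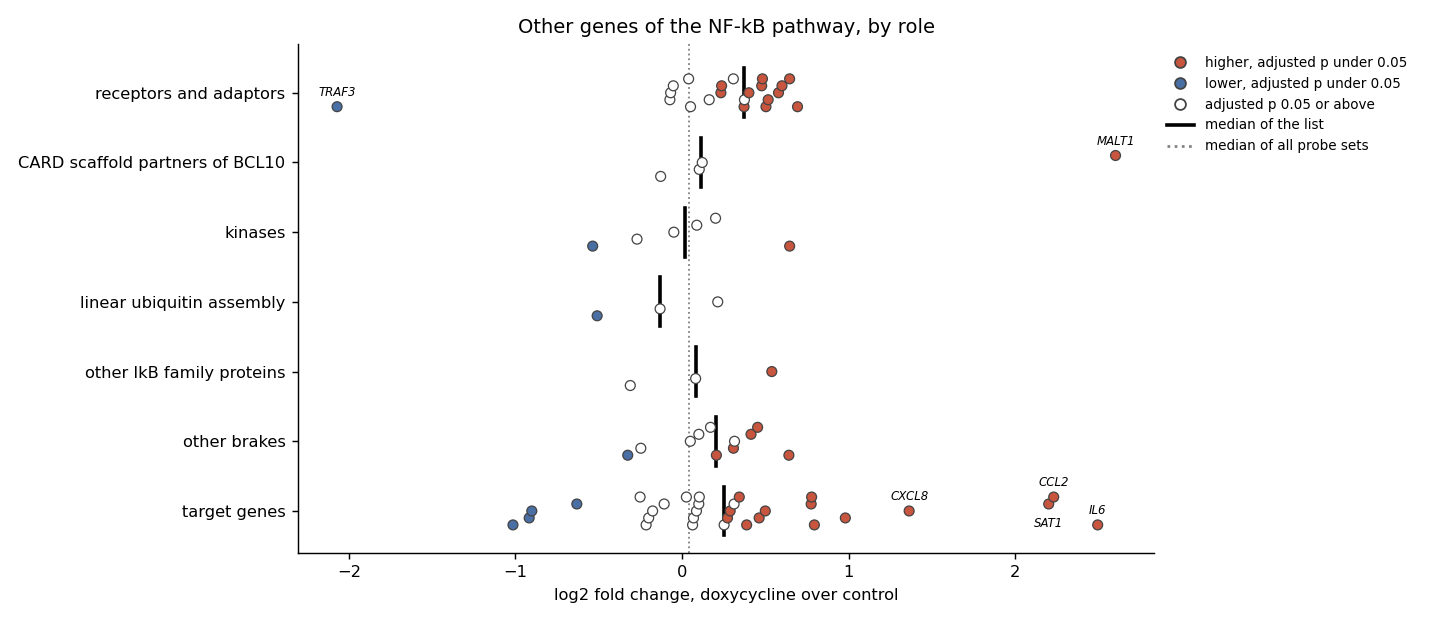
Log2 fold change of doxycycline over control (x axis) for 79 measured genes in 7 pathway lists (rows); red and blue points passed an adjusted p under 0.05 as higher or lower, white points did not, black bars are list medians and the dotted line is the median of all probe sets (0.04). MALT1 and IL6 lie farthest right and TRAF3 farthest left.

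Array medians lay between 5.02 and 5.10 log2 units, and first quartiles between 2.80 and 2.94. For the marker counts that follow, the shares of all probe sets were 20.9% higher and 17.2% lower with doxycycline. Without probe sets below the median signal 5586 of 9285 passed. Of 10 melanocyte lineage markers 6 rose, MITF, PAX3, S100A1, ERBB3, S100B and TYR, and none fell. SOX10 read 8.71 ± 0.13 in control and 8.91 ± 0.11 with doxycycline (SD, n = 5) and MITF 7.12 ± 0.07 and 8.33 ± 0.07, whereas the pigment genes MLANA, PMEL, TYR and TYRP1 had means at or below 2.49 in both groups. Of 8 leukocyte markers 2 rose, CD14 and LYZ, while PTPRC, CD3E, MS4A1 and ITGAM had group means of 2.07 to 2.75, below the first quartile of every array. CD68 (8.84 in control and 9.04 with doxycycline) and NKG7 (4.39 and 4.46) lay above it and did not pass. All 5 fibroblast markers measured rose, and the sum of their linear signals went from 103 to 126 on control arrays to 222 to 257 on doxycycline arrays. The same sum also rose for melanocyte (2034 to 2247, then 2735 to 3146), leukocyte (534 to 715, then 811 to 1092) and endothelial markers (64 to 86, then 121 to 169). It fell for epithelial markers (787 to 869, then 637 to 754). Such sums are carried by the genes with the highest signal and do not speak for a whole list. The leukocyte sum was mostly CD68 and LYZ (6.87 in control and 8.31 with doxycycline). The endothelial sum was mostly KDR (5.70 in control and 6.88 with doxycycline). Of 5 endothelial markers KDR alone rose, and of 6 epithelial markers KRT5 rose and KRT8 fell. KRT5 was dim, with means of 2.45 in control and 2.84 with doxycycline, and 1 doxycycline array lay above all controls. CD14 was also dim, with means of 2.82 and 3.34. The part of these markers in the changes of the NF-kB genes was not tested.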

How the data were processed

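Total RNA was biotin-labelled and hybridised by the authors. The deposited values are log2 RMA expression values, with background correction, quantile normalization and probe set summary, per the submitters' processing notes (RMA version and filters: not given in the sources used here). RMA makes array distributions alike, so a change in total RNA would not be seen. Symbols came from the platform annotation (17511 probe sets with 1 symbol, 1058 unnamed, 0 with several), and all 10 members were current symbols in RefSeq. Probe sets differ in brightness, so levels of different genes were not ranked; quartiles of each array served only to tell dim probe sets.

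Doxycycline was compared with control with limma 3.58.1 (lmFit, then eBayes; R 4.3.3), with group as the single term, two-sided, and Benjamini-Hochberg adjustment over 18569 probe sets. The code was tested on simulated data. The number of arrays limits precision; the median SE was 0.103 log2 units. Array correlations were 0.970 or more and no 2 arrays were identical.

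All members were named; from pathway lists of up to 6 genes all measured genes were named, and from longer ones up to 4 called genes per direction by size. Profile likeness was ranked for the members of highest and lowest fold change. The members and lists were chosen with earlier results of these data known, so their counts are not independent support. Protein sequences were not used here. Alternatives were filters on dim probe sets, scaling, variance models, array weights, a replicate block and leaving out each array.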

Additional observations from a re-analysis of the deposited data

Results flagged for a closer look

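In groups of 5 arrays, a value was marked when its gap to the nearest array exceeded 0.71 of the group's range. Of 86 groups examined for the named genes 2 met this, and chance marks about 1 in 20. NFKB2 on control array 2 read 7.49 log2 units against 7.73 on the nearest control. SAT1 on doxycycline array 2 read 9.25 against 9.37 on the nearest doxycycline array.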

How the results depend on the processing

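The number of members called was 4 to 6 under all alternatives run, against 5 as reported, and 4 to 5 with 1 array left out. REL, NFKBIA, NFKBIE and TNFAIP3 kept their calls throughout, except that the median filter removed NFKBIE before the test. With the replicate block the count was 4, since RELA was lost (adjusted p = 0.0657). Same-numbered arrays did not deviate together (correlations of -0.44 to -0.01), so the numbers were not taken as pairs. Calls over all probe sets ranged from 5586, under the median filter with fewer probe sets tested, to 7696, with array weights. Doxycycline array 1 had the lowest weight, 0.389. Without it 7237 probe sets passed, against 7078 as reported, and RELA stood at 0.23 (adjusted p = 0.0448). Leaving out 1 array turned the sign of 3 uncalled genes: IKBKG ranged from -0.0056 to 0.15, MAP3K14 from -0.14 to 0.0564 and NFKBID from -9e-04 to 0.16. Each of the 9 measured members had 1 probe set, so there were no probe sets to average. Low signal limits the fold changes of dim genes, such as IL6 in control and PDLIM2.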

Other observations

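Some further genes of the pathway lists passed the test, and those that follow were chosen after their values were seen. BIRC2, the ubiquitin ligase cIAP1 and the neighbour of BIRC3 in RefSeq order, read 6.88 ± 0.12 in control and 7.36 ± 0.08 with doxycycline (log2 mean ± SD of 5 arrays), a rise with adjusted p = 2.60e-04. The receptor TNFRSF12A (0.52 ± 0.09, log2 fold change ± SE), the interleukin 1 receptor partner IL1RAP (0.50 ± 0.10) and the kinase IRAK2 (0.48 ± 0.12) rose. Among target genes the chemokines CCL20 (0.98 ± 0.14) and CXCL1 (0.78 ± 0.08), the stress gene IER3 (0.79 ± 0.09) and the adhesion molecule ICAM1 (0.50 ± 0.09) rose. Not all secreted targets did: CXCL2 stood at 0.31 (adjusted p = 0.0686), IL1B at -0.20 (adjusted p = 0.0582) and CCL5 at -0.22 (adjusted p = 0.336). Among the brakes, TNIP1, TNIP2, TNIP3, ITCH and COMMD1 did not pass, with adjusted p values from 0.0903 to 0.778. CCL5 (means of 3.24 in control and 3.02 with doxycycline) and TNIP3 (2.49 and 2.59) were dim, which limits what their values show.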
